A study of Mus musculus with 105 samples.

Results

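The genes described here are the heat shock chaperones and chaperonins of mouse CD4+ T cells, followed through activation and through blocks of transcription and translation. They were chosen by name as a list of 34 genes: 5 Hsp70 genes, 4 Hsp110 and exchange factor genes, 7 J-domain genes, 3 Hsp90 genes, 3 Hsp90 co-chaperones, 2 mitochondrial chaperonin genes, 8 subunits of the cytosolic chaperonin CCT, the transcription factor gene Hsf1, and Hspb11. Of the 34, 33 were found among the 22322 mouse genes counted, and Cct6a was not analysed here. The cells were primary CD4+ T cells, purified by negative selection from spleen and lymph nodes of 6-week-old female C57BL/6J mice. Activated cells had been given beads coated with CD3 and CD28 antibodies. Resting cells had not. The time between adding the beads and time 0 is not given in the sources used here. Both kinds of cell were collected at 0, 1 and 3 h untreated and with triptolide (25 µM) alone. At 1 and 3 h only, they were also collected with triptolide together with cycloheximide (100 µg/ml) or harringtonine (2 µg/ml), and with cycloheximide or harringtonine alone. Activated cells also received DRB (65 µM), alone at 0, 1 and 3 h or with the same translation inhibitors at 1 and 3 h. Triptolide and DRB block RNA polymerase II, so the fall of a mature mRNA in their presence is read as decay, as far as the block holds. Cycloheximide stalls elongating ribosomes, and harringtonine stops ribosomes just after initiation while those already elongating run off. There were 35 groups (21 activated, 14 resting) of 3 libraries each, numbered replicates 2, 3 and 4. The labels call them biological replicates, and nothing in them ties a number to a mouse, so p-values measure the spread between these samples.

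Molecular chaperones bind unfolded or partly folded proteins. Hsp70 proteins hold short exposed stretches of a client in a cycle driven by ATP, which J-domain proteins start and Hsp110 or BAG-domain proteins end by exchanging the nucleotide. Hsp90 dimers take many clients, kinases and steroid receptors among them, from Hsp70 with the help of adaptors such as Stip1. Chaperonins enclose a client in a chamber: Hspd1 with its lid Hspe1 in mitochondria, and the hetero-oligomeric CCT ring (Tcp1 and the Cct genes) in the cytosol, where actin and tubulin are its main clients. The transcription factor Hsf1 drives many of these genes through heat shock elements, inverted repeats of the unit GAA. The endoplasmic reticulum members Hspa5, Hsp90b1 and Dnajb11 answer to the unfolded protein response, through ER stress elements. T cells enlarge and divide after stimulation, which raises the load of newly made protein.

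The stretches below, from windows around gene starts, are shown because they carry the heat shock or ER stress elements counted after them. They come from the RefSeq promoter table of build GRCm38.p6, whose windows run from 250 bases before to 50 bases after a gene's start. Of the 33 members, 27 had a window. Capitals mark the matched motif, a heat shock element in Hspd1, Dnajb6, Hsph1, Hspa1b and Hspa1a and an ER stress element in Hspa5 and Hsp90b1.
Hspd1, chr1:55088053-55088082, minus strand: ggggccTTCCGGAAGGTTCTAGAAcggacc
Dnajb6, chr5:29735844-29735873, plus strand: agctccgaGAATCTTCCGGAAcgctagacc
Hsph1, chr5:149636351-149636380, minus strand: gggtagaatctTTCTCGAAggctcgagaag
Hspa1b, chr17:34959315-34959362, minus strand: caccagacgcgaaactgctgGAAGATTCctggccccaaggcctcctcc
Hspa1a, chr17:34972233-34972280, minus strand: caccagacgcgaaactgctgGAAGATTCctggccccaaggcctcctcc
Hspa5, chr2:34772020-34772049, plus strand: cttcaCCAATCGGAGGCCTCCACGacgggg
Hsp90b1, chr10:86705513-86705676, minus strand: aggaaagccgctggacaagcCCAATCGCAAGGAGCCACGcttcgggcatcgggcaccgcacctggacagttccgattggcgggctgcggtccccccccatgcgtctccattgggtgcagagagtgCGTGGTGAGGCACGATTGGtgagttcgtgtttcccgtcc

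A heat shock element of 2 units (GAANNTTC or TTCNNGAA, each its own reverse complement) lay in the windows of 12 of 27 members (44.4%) and of 16.97% of 27025 genes. Those members were Hspa1a, Hspa1b, Hsph1, Bag3, Dnaja1, Dnajb4, Dnajb6, Chordc1, Hspd1, Hspe1, Cct2 and Cct5. The longer form of 3 units (GAANNTTCNNGAA, on either strand, which contains the shorter form) lay in 5 of 27 (18.5%), against 0.662% of all genes. These 5 were Hsph1, Chordc1, Dnajb6, Hspd1 and Hspe1. The stretch shown for Hsph1 holds a match of 2 units only, and its match of 3 units lies outside that stretch. Hspd1 and Hspe1 lie head to head on chromosome 1 and share the stretch shown. The stretches of Hspd1, Dnajb6, Hsph1 and Hspa5 overlap an annotated exon, and those of Hspa1a, Hspa1b and Hsp90b1 do not. The ER stress element (CCAAT, then 9 bases of any kind, then CCACG, on either strand) lay in Hspa5 and Hsp90b1, which is 7.41% of the 27 against 0.137% of all genes, and Hsp90b1 held it on both strands. Hspa1a and Hspa1b, the stress-inducible Hsp70 pair, had windows identical at 296 of 300 bases (98.7%). No window was given for Cct4, Hsp90aa1, Hsp90ab1, Hsf1, Hspa8 and Hspa9. A match describes letters in a window and shows no binding.

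Exon counts per library ran from 6300 to 6479221 (median 2135827), intron counts from 3897 to 4755794, and counts of the ERCC spike-in RNAs from 660 to 388386. Levels are exon CPM, counts scaled to a common total with TMM factors. Fold changes are log2 values ± SE from edgeR, relative to the typical mRNA unless called spike-scaled, and a gene is called at an adjusted p under 0.05. Replicate 3 supplied both of the shallowest libraries, at 6300 for triptolide at 1 h in resting cells and 141028 for untreated activated cells at 0 h. The next held 551975. Marker sums are CPM on plain exon totals, without TMM factors. CD4 T cell markers summed to 1546 to 3434 CPM in activated and 1304 to 2287 CPM in resting libraries, for 7 of 8 markers in the table and leaving out the 2 shallowest. B cell markers (5 of 6 in the table, none at 0 throughout) summed to 15.98 to 396 CPM in activated and 58.8 to 1105 CPM in resting libraries, and their part in the differences between the cell states was not tested. Markers of CD8 T cells, NK cells, macrophages and erythroid cells each stayed at or below 25.8 CPM. In bulk libraries, fewer cells of a type and less RNA per cell cannot be told apart.

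All 33 members passed the filter on low counts for exons, and 10741 genes were tested. The heat map of all members across the comparisons gives the overview: in activated cells at 3 h, 7 of the 7 CCT subunits were higher than in resting cells (26.3% of all tested genes), 6 fell with triptolide (26.1% of all) and 4 with DRB (21.9%), and 5 were higher with cycloheximide added to triptolide than with triptolide alone (15.8%).

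**Figure D1:**
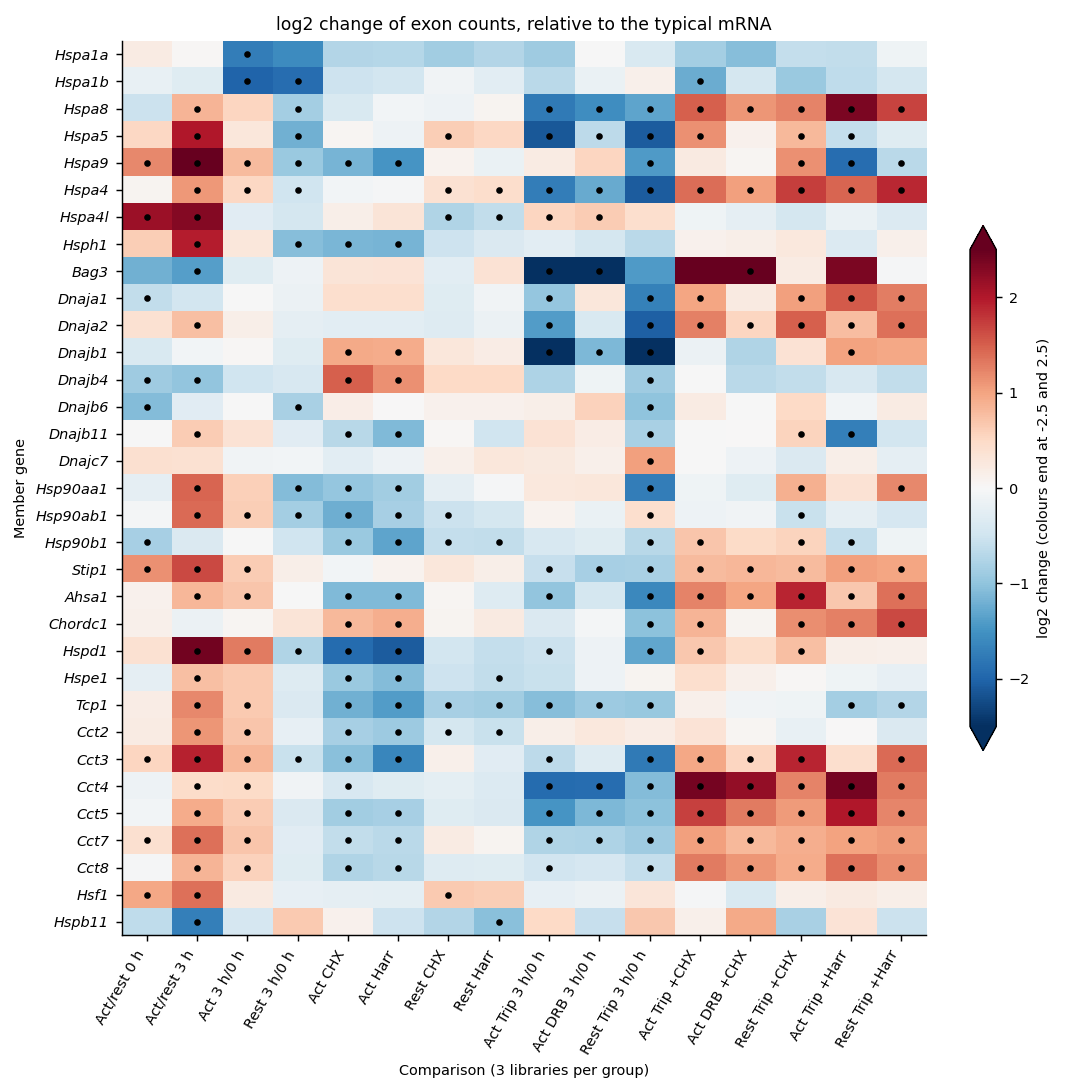
Heat map of the log2 exon change of 33 chaperone genes (rows, grouped by role) in 16 comparisons between groups of 3 libraries (columns), on a colour scale from -2.5 to 2.5, relative to the typical mRNA. Black dots mark calls at an adjusted p under 0.05. The fitted values of Bag3 in columns with a group at 0 counts are no bound.

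The genes the results turn on lie apart in GRCm38 (mm10; annotation GENCODE vM21): Hspa8 at chr9:40800984-40810087, Hspa5 at chr2:34771970-34777547, Hspd1 at chr1:55077835-55088243, Cct3 at chr3:88297116-88321767, Cct4 at chr11:22990519-23003780, Hsp90aa1 at chr12:110690605-110702728 and Hsp90ab1 at chr17:45567775-45573271. Per kilobase of exon, the constitutive cytosolic Hsp70 gene Hspa8 was the most abundant member at 0 h, at 767 CPM per kb in activated and 1104 CPM per kb in resting cells. Hsp90ab1, the constitutive cytosolic Hsp90, came next at 594 and 619 CPM per kb. Hspa5, the Hsp70 of the endoplasmic reticulum, followed (288 and 202 CPM per kb), and then Cct5 (194 CPM per kb in activated cells). The mitochondrial Hsp70 gene Hspa9 ranked 5 of 33 in activated cells (193 CPM per kb) but 13 in resting cells (85.7 CPM per kb). At the other end, Bag3, an exchange factor of stress responses, stood at 0.64 and 2.02 CPM per kb, and Hspa1a at 5.38 and 4.77 CPM per kb. Hspa1a and Hspa1b share 58.8% and 62.3% of the 50-base words of their transcripts, so their separate levels are uncertain.

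The first comparison asked how untreated activated and resting cells differed at 0 h. Of the 33 members, 6 were higher in activated cells (background 13.9% of all genes tested) and 4 lower (background 12.9%), and the median member stood at 0.06 log2 against -0.01 for all genes. Without the 2 shallowest libraries 6 were higher and 3 lower. Hspa4l differed the most. This Hsp110-type exchange factor had 458, 275 and 291 CPM in activated libraries and 78.6, 79.5 and 80.7 CPM in resting ones. No libraries overlapped, and the difference was 2.13 ± 0.21 (edgeR adjusted p 1.97e-13). Hspa9 stood at 839, 459 and 467 CPM against 398, 184 and 202 CPM, a difference of 1.20 ± 0.24 (edgeR adjusted p 7.57e-05). Stip1, which links Hsp70 to Hsp90, was higher by 1.15 ± 0.21 (edgeR adjusted p 1.01e-05) and Hsf1 by 0.96 ± 0.26 (edgeR adjusted p 0.00361). In the other direction, the endoplasmic reticulum Hsp90 gene Hsp90b1 had 161, 91.7 and 143 CPM in activated and 297, 241 and 213 CPM in resting libraries, a difference of -0.84 ± 0.20 (edgeR adjusted p 0.000662). The J-domain genes Dnajb6 (-1.08 ± 0.27, edgeR adjusted p 0.00148) and Dnajb4 (-0.90 ± 0.28, edgeR adjusted p 0.0111) were also lower in activated cells. The most abundant member, Hspa8, was not called (-0.53 ± 0.25, edgeR adjusted p 0.113), nor were Hspa5 (0.52 ± 0.22, 0.0758), Hspd1 (0.38 ± 0.23, 0.221), Hsp90ab1 (-0.06 ± 0.19, 0.876) and Cct2 (0.20 ± 0.17, 0.412). Without replicate 2, the number of members called was 4 in place of 10, and the adjusted p was 0.154 for Dnajb6, 0.396 for Dnajb4 and 0.069 for Hsf1. Without replicate 3 it was 0.0577 for Dnajb4.

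At 3 h the untreated cell states differed far more widely: 22 members were higher in activated cells (background 26.3%) and 3 lower (background 27.5%). The 7 CCT subunits, both mitochondrial chaperonin genes, 3 of 5 Hsp70 genes, 3 of 4 Hsp110 and exchange factor genes, 2 of 3 Hsp90 genes and 2 of 3 co-chaperones were among those higher, and 2 of 7 J-domain genes. The median member stood at 0.85 against -0.04 for all genes. Hspa9 had the largest difference: 1186, 950 and 959 CPM in activated against 137, 129 and 143 CPM in resting libraries (2.92 ± 0.25, edgeR adjusted p 7.25e-17). Hspd1 followed, at 402, 290 and 381 CPM against 57.8, 59.3 and 81.9 CPM (2.42 ± 0.23, edgeR adjusted p 2.23e-15). So mRNAs for the main mitochondrial Hsp70 and Hsp60 stood several times higher in every activated library than in any resting one. Among CCT subunits, Cct3 had 709, 686 and 616 CPM against 152, 179 and 196 CPM (1.93 ± 0.18, edgeR adjusted p 1.06e-15), and Cct7 differed by 1.39 ± 0.14 and Cct2 by 1.1 ± 0.17. Hspa4l remained higher in activated cells, at 2.30 ± 0.21, and Hspa5 was higher by 2.00 ± 0.23 (edgeR adjusted p 6.51e-12). Stip1 (1.64 ± 0.20), Hsp90aa1 (1.46 ± 0.22), Hsp90ab1 (1.41 ± 0.19) and Hsf1 (1.38 ± 0.25, edgeR adjusted p 3.22e-06) were higher too. Hspa8 was higher by 0.86 ± 0.25 (edgeR adjusted p 0.00295), and this call was lost without replicate 4 (adjusted p 0.1). Hspa1a (0.04 ± 0.64), Hspa1b (-0.30 ± 0.52) and Dnajb1 (-0.07 ± 0.29), the genes most often read as signs of a heat shock response, were not called (edgeR adjusted p 0.974, 0.655 and 0.879). The 3 lower members were Bag3, Dnajb4 and Hspb11.

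The same untreated libraries were then compared over time within each state, as the plot of untreated time courses shows. In activated cells 13 members rose from 0 to 3 h (background 6.05%) and 2 fell (background 7.56%), and the 7 CCT subunits all rose. In resting cells none rose (background 3.03%) in edgeR, in DESeq2 or at an unadjusted p under 0.05 (0 in each), and 11 fell (background 3.36%). The medians were 0.36 for the members in activated cells, against 0.00 for all genes, and -0.36 in resting cells, against -0.00. Hspd1 had 194, 97.8 and 121 CPM at 0 h and 402, 290 and 381 CPM at 3 h in activated cells, a rise of 1.29 ± 0.23 (edgeR adjusted p 1.63e-05). Cct3 rose by 0.83 ± 0.18 (edgeR adjusted p 0.000409), Cct7 by 0.69 ± 0.14 (0.000312), Cct2 by 0.69 ± 0.17 (0.00203) and Tcp1 by 0.66 ± 0.17 (0.00351). Hspa9 (0.79 ± 0.24, edgeR adjusted p 0.017) and Hsp90ab1 (0.62 ± 0.19, 0.0195) also rose. In resting cells, by contrast, Hspa5 had 978, 593 and 700 CPM at 0 h and 299, 294 and 392 CPM at 3 h, a fall of -1.20 ± 0.23 (edgeR adjusted p 0.000179). Hsp90aa1 (-1.08 ± 0.22, 0.000638), Hspa9 (-0.93 ± 0.24, 0.00919), Hspa8 (-0.86 ± 0.25, 0.0245), Hsp90ab1 (-0.84 ± 0.19, 0.0024) and Hspd1 (-0.75 ± 0.22, 0.0258) fell with it in edgeR's test. The calls depended on single replicates. Without the 2 shallowest libraries 11 members rose and 1 fell in activated cells. Without replicate 4, 2 members were called in activated cells and 2 in resting cells, with adjusted p of 0.0647 for Hspd1, 0.0838 for Cct3, 0.135 for Cct7, 0.31 for Cct2, 0.325 for Tcp1, 0.449 for Hspa9 and 0.469 for Hsp90ab1 in activated cells and 0.225 for Hspa8, 0.108 for Hspa9, 0.0988 for Hsp90ab1 and 0.0862 for Hspd1 in resting cells. Without replicate 2, 7 and 2 were called, with adjusted p of 0.0609 for Hsp90ab1 in activated cells and 0.0509 for Hspa5, 0.256 for Hsp90aa1, 0.226 for Hspa9, 0.372 for Hspa8 and 0.4 for Hspd1 in resting cells, and Hspa9 in activated cells stood at 0.061 without replicate 3. With the replicate number as a block, Hspa8 (0.53 ± 0.25, edgeR adjusted p 0.165) and Hsp90aa1 (0.60 ± 0.22, 0.0575) were also called in activated cells (adjusted p 0.0084 and 0.00672). Without a filter on low counts 5 members were called in activated cells, and with only the libraries compared 4 in activated and 7 in resting cells.

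**Figure D2:**
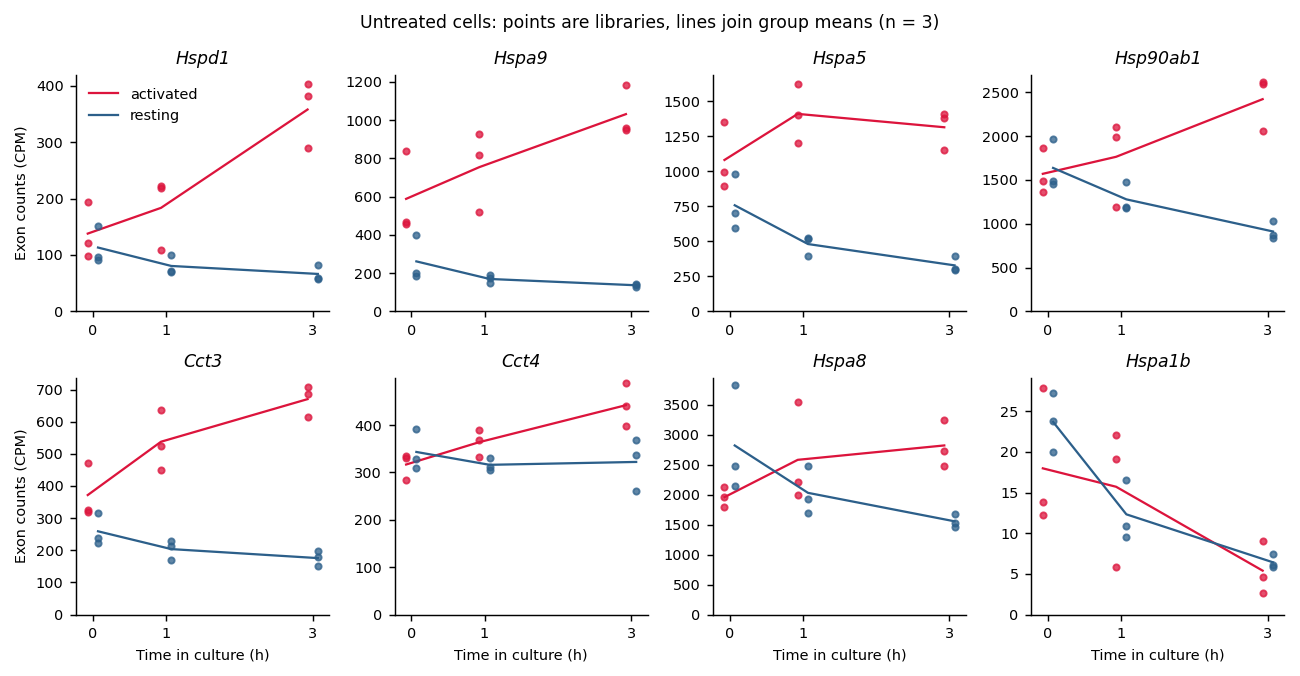
Exon CPM of 8 chaperone genes in each untreated library (points) at 0, 1 and 3 h, activated in red and resting in blue. At 3 h the activated libraries of Hspd1 (290 to 402 CPM) and Hspa9 (950 to 1186 CPM) lie above every resting library, while both states of Hspa1b lie below 10 CPM.

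The members that fell over time in activated cells were the stress-inducible pair. Hspa1b had 27.9, 12.2 and 13.8 CPM at 0 h and 4.61, 8.98 and 2.60 CPM at 3 h in untreated activated cells, and 27.3, 19.99 and 23.8 CPM at 0 h and 7.39, 5.84 and 6.05 CPM at 3 h in resting cells. In neither state did the libraries of the times overlap. It fell by 2.01 ± 0.48 in activated cells (edgeR adjusted p 0.00162) and by 1.90 ± 0.44 in resting cells (edgeR adjusted p 0.00275). Hspa1a, whose reads may be split with Hspa1b, had 23.8, 18.3 and 5.77 CPM at 0 h and 4.61, 4.19 and 5.64 CPM at 3 h in activated cells (-1.72 ± 0.59, edgeR adjusted p 0.0367). In resting cells its change was -1.56 ± 0.57 (edgeR adjusted p 0.0823). Without replicate 2 the activated adjusted p was 0.15 for Hspa1b and 0.741 for Hspa1a, Hspa1a stood at 0.176 without replicate 3, and without replicate 4 the resting value of Hspa1b was 0.0592. The activated 0 h values of 12.2 and 18.3 CPM came from the library of 141028 exon counts, so each rests on few reads. Without the 2 shallowest libraries the falls in activated cells were not both called.

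Decay was read from the triptolide and DRB series between 0 and 3 h. Intron counts of some members did not fall between 0 and 3 h of DRB, as given further below. The part of new RNA in the DRB values was not tested. Among the members tested, 16 fell and 1 rose relative to the typical mRNA in activated cells with triptolide (backgrounds 26.1% and 21.5%), 22 fell and 2 rose in resting cells (30.3% and 26.6%), and 10 fell and 1 rose in activated cells with DRB (21.9% and 17.9%). Per spike-in molecule, all 33 members were below 0 in all 3 comparisons, with medians of -2.27, -2.67 and -1.82 log2 against -1.68, -1.77 and -1.54 for all genes tested. In all, 9 members fell in all 3 comparisons (9 of 16, 22 and 10): Hspa8, Hspa5, Hspa4, Dnajb1, Stip1, Tcp1, Cct4, Cct5 and Cct7. Dnajb1, the J-domain partner of inducible Hsp70, had the deepest fall with triptolide in both states among members with counts in both groups. It had 68.2, 123 and 100 CPM at 0 h and 16.1, 13.9 and 19.3 CPM at 3 h with triptolide in activated cells, a change of -2.53 ± 0.36 (edgeR adjusted p 2.2e-08), and 5.34% of its 0 h level was left per spike-in molecule. In resting cells it changed by -3.07 ± 0.37 (edgeR adjusted p 8.88e-11), with 3.51% left. With DRB it went from 68.0, 126 and 92.8 CPM to 41.7, 58.2 and 33.3 CPM, a change of -1.12 ± 0.32 (edgeR adjusted p 0.00342) with 15.4% left, and this call was lost without replicate 4 (adjusted p 0.168).

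The CCT subunits, whose proteins occupy the same ring, covered a wide range of values, and differences between subunits were not tested. Cct4 had 298, 348 and 327 CPM at 0 h and 93.0, 74.8 and 84.6 CPM at 3 h with triptolide in activated cells, and 345, 364 and 308 CPM against 92.3, 103 and 77.1 CPM with DRB. The changes were -1.93 ± 0.16 (edgeR adjusted p 1.88e-16) and -1.91 ± 0.16 (edgeR adjusted p 2.3e-16), with 8.54% and 9.1% left per spike-in molecule. In resting cells Cct4 changed by -1.09 ± 0.15 (edgeR adjusted p 4.66e-09), with 14.5% left. Cct2, by contrast, had 368, 480 and 381 CPM at 0 h and 501, 400 and 452 CPM at 3 h in activated cells, which overlap. Its change with triptolide was 0.14 ± 0.17 (edgeR adjusted p 0.502) in activated and 0.18 ± 0.17 (0.368) in resting cells, values that turn to -1.43 and -1.52 when spike-scaled, with 37.2% and 34.9% left. Cct5 (-1.47 ± 0.20, 12.7% left), Tcp1 (-1.06 ± 0.17) and Cct7 (-0.75 ± 0.14) lay between them in activated cells with triptolide. The same genes fell with DRB, by -1.12 ± 0.20, -0.91 ± 0.17 and -0.77 ± 0.14 (edgeR adjusted p of at most 1.2e-05 in both series).

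Among Hsp70 genes, Hspa5 had 979, 915 and 757 CPM at 0 h and 216, 209 and 185 CPM at 3 h with triptolide in activated cells (-2.12 ± 0.24, edgeR adjusted p 9.24e-12, 7.77% left). In resting cells it changed by -2.08 ± 0.24 (edgeR adjusted p 1.06e-11, 7.19% left). With DRB it went from 1199, 828 and 731 CPM to 631, 580 and 539 CPM, a change of -0.66 ± 0.22 (edgeR adjusted p 0.0141, 22.1% left), which was lost without replicate 2 (adjusted p 0.174) or 4 (0.0851). The difference between triptolide and DRB was not tested. Hspa8 changed by -1.77 ± 0.26 with triptolide in activated cells (edgeR adjusted p 4.04e-08, 10.1% left), by -1.31 ± 0.26 in resting cells (1.05e-05) and by -1.55 ± 0.26 with DRB (1.25e-06). Hspa4, an Hsp110 exchange factor, changed by -1.74 ± 0.15, -2.09 ± 0.15 and -1.26 ± 0.15 in the same 3 series (edgeR adjusted p of at most 1.25e-10). Hspa4l, its close relative, went the other way on the scale of typical mRNA and was the member that rose in activated cells, while per spike-in molecule it fell to 46.0% of its 0 h level. Bag3 had 0 counts in the activated 3 h triptolide and DRB groups, against 11 and 17 counts at 0 h, which by library were 1, 5 and 5 for triptolide and 8, 3 and 6 for DRB, too few for a fold to be given.

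In activated cells with triptolide none of the 3 Hsp90 genes was called. Hsp90aa1 stood at 0.26 ± 0.22 (edgeR adjusted p 0.334) and Hsp90ab1 at 0.09 ± 0.19 (0.719), values that turn to -1.34 and -1.50 when spike-scaled. In resting cells Hsp90aa1, the inducible form, went from 1056, 459 and 520 CPM to 236, 170 and 212 CPM (-1.72 ± 0.23, edgeR adjusted p 1.34e-09), so no 3 h library reached a 0 h library. Hsp90ab1 had 2221, 1450 and 1721 CPM at 0 h and 2627, 2182 and 2445 CPM at 3 h in resting cells (0.43 ± 0.19, edgeR adjusted p 0.0495), but its change turned to -1.28 when spike-scaled and to -0.056 with library size alone, and the call was lost without any 1 of the replicates (adjusted p 0.0536 to 0.329). The mitochondrial Hspd1 fell by 0.55 ± 0.23 in activated cells (edgeR adjusted p 0.0403, lost without replicate 3 at 0.148 or 4 at 0.184) and by 1.30 ± 0.24 in resting cells (4.5e-06). With DRB it was not called (-0.13 ± 0.22, edgeR adjusted p 0.68). Hsf1 was called in none of the 3 decay series (-0.20 ± 0.26, 0.30 ± 0.27 and -0.14 ± 0.25, edgeR adjusted p 0.531, 0.334 and 0.695), and neither was Hspa1a or Hspa1b. With the replicate number as a block, 18 members were called with DRB in place of 11 (3 higher, 15 lower), and the background with the block is not given.

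**Figure D3:**
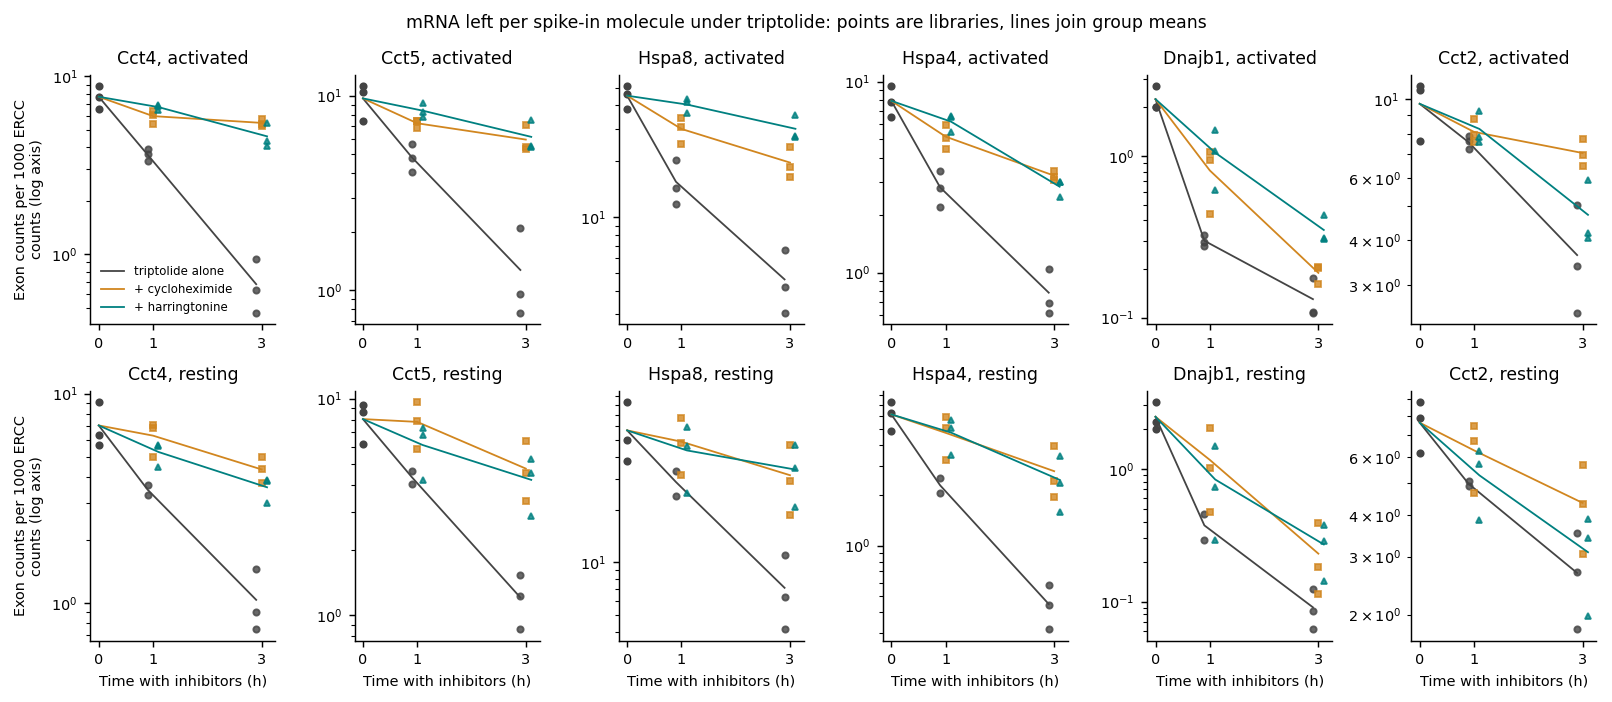
Exon counts per 1000 ERCC counts (log axis) of 6 chaperone genes at 0, 1 and 3 h of triptolide alone, with cycloheximide and with harringtonine, one point per library, in activated and resting cells. Cct4 alone fell from 7.69 to 0.679 in activated means but stood at 5.48 with cycloheximide. The resting 1 h triptolide library with 6300 exon counts is not drawn.

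Whether these transcripts need translation for their decay was addressed by adding a translation inhibitor to triptolide or DRB. All of these comparisons share the libraries of triptolide or DRB alone with the decay series, so their values are set side by side only. With cycloheximide, 15 members were higher and 1 lower than with triptolide alone in activated cells at 3 h (backgrounds 15.8% and 11.6%), 18 and 1 in resting cells (18.8% and 16.4%), and 11 and 0 with DRB (10.5% and 7.17%; 1 lower at an unadjusted p under 0.05 and 0 in DESeq2). Medians were 0.42, 0.57 and 0.12 log2, against -0.08, -0.05 and -0.10 for all genes. With the replicate block, cycloheximide added to DRB gave 12 members higher and 2 lower, and the background with the block is not given. In all, 10 members were higher in all 3 (10 of 15, 18 and 11): Hspa8, Hspa4, Dnaja2, Stip1, Ahsa1, Cct3, Cct4, Cct5, Cct7 and Cct8. Cct4 had the largest difference among called members in activated cells with triptolide. It stood at 93.0, 74.8 and 84.6 CPM with triptolide alone and at 406, 453 and 477 CPM with cycloheximide added, a difference of 2.39 ± 0.16 (edgeR adjusted p 3.47e-21). Per 1000 ERCC counts its mean went from 7.69 ± 1.2 (SD, n = 3) at 0 h to 0.679 ± 0.24 after 3 h of triptolide, and stood at 5.48 ± 0.27 with cycloheximide and 4.60 ± 0.73 with harringtonine. In resting cells the cycloheximide difference of Cct4 was 1.24 ± 0.15 (edgeR adjusted p 4.26e-10), and with DRB it was 2.19 ± 0.16 (4.1e-19).

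Hspa8 had 620, 525 and 549 CPM with triptolide alone and 1414, 1864 and 1492 CPM with cycloheximide (1.49 ± 0.26, edgeR adjusted p 4.57e-06). It was higher by 1.24 ± 0.26 in resting cells (8.37e-05) and by 1.1 ± 0.26 with DRB (edgeR adjusted p 0.00106, lost without replicate 4 at 0.114). Hspa4 was higher by 1.39 ± 0.15, 1.73 ± 0.15 and 1.03 ± 0.15 (edgeR adjusted p of at most 1.91e-07). In resting cells the co-chaperone Ahsa1, which stimulates the Hsp90 ATPase, had 23.2, 19.7 and 26.1 CPM with triptolide and 83.3, 83.9 and 94.0 CPM with cycloheximide added (1.91 ± 0.23, edgeR adjusted p 2.89e-10), and Cct3 was higher by 1.90 ± 0.19 (3.73e-13). Hspa5 was higher in activated (1.14 ± 0.23, edgeR adjusted p 7.97e-05) and resting cells (0.81 ± 0.23, 0.00438, and 0.0558 without replicate 2), but not called with DRB (0.11 ± 0.22, 0.765). Hspd1 was higher by 0.68 ± 0.23 in activated (edgeR adjusted p 0.0182, lost without replicate 3 at 0.114 or 4 at 0.143) and by 0.75 ± 0.25 in resting cells (0.0133, lost without replicate 4 at 0.188). Dnajb1, the member with the deepest fall, was not called with cycloheximide. It had 16.1, 13.9 and 19.3 CPM with triptolide alone and 15.2, 16 and 14.6 CPM with cycloheximide in activated cells (-0.14 ± 0.40, edgeR adjusted p 0.824). With DRB its difference was -0.75 ± 0.36 (edgeR adjusted p 0.142, and 0.0175 with the replicate block). At 1 h, however, Dnajb1 averaged 0.299 per 1000 ERCC counts with triptolide alone and 0.814 with cycloheximide in activated cells, against 2.25 at 0 h, and no test was run at that time. Cct2, which had little relative change under triptolide, was not called in activated cells (0.35 ± 0.17, edgeR adjusted p 0.107, and 0.0225 with the block), with DRB (0.05 ± 0.17, 0.868) or in resting cells (-0.19 ± 0.17, 0.392, which turns to 0.71 when spike-scaled).

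The lower calls were Hspa1b in activated cells, at 17.8, 13.9 and 13.7 CPM with triptolide and 5.93, 8.96 and 5.41 CPM with cycloheximide added (-1.25 ± 0.49, edgeR adjusted p 0.0457), and Hsp90ab1 in resting cells (-0.55 ± 0.19, 0.0195). The first was lost without any 1 of the replicates (adjusted p 0.115 to 0.174) and without the 2 shallowest libraries, when none was lower, and the second without replicate 3 (0.0756) or 4 (0.249) and turned to 0.41 when spike-scaled. In resting cells Hspa1b stood at -0.93 ± 0.44 (edgeR adjusted p 0.0903, and 0.00409 with the block), which turns to 0.026 when spike-scaled. Hsp90aa1 was higher in resting cells (0.88 ± 0.23, edgeR adjusted p 0.00149, and 0.052 without replicate 4) and not called in activated cells (-0.10 ± 0.22, 0.756). Bag3 had 0 counts under DRB alone and 6, 0 and 2 counts with cycloheximide added, and no fold is given.

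Harringtonine gave 12 members higher and 5 lower than triptolide alone in activated cells (backgrounds 14.8% and 9.87%) and 13 higher and 2 lower in resting cells (14.6% and 9.48%), with medians of 0.22 and 0.13 against -0.08 for all genes in both. In both states 11 were higher (11 of 12 and 13): Hspa8, Hspa4, Dnaja1, Dnaja2, Stip1, Ahsa1, Chordc1, Cct4, Cct5, Cct7 and Cct8. Cct4 had 377, 517 and 441 CPM with harringtonine added in activated cells, a difference of 2.39 ± 0.16 (edgeR adjusted p 4.12e-21), and 1.30 ± 0.15 in resting cells (1.44e-10). Hspa8 had 2497, 3392 and 2788 CPM in activated cells, a difference of 2.35 ± 0.27 (edgeR adjusted p 2.3e-11), and 1.69 ± 0.26 in resting cells (2.64e-07). Cct5 (2.00 ± 0.20) and Hspa4 (1.45 ± 0.15) were also higher in activated cells. Dnajb1 was higher by 1.00 ± 0.39 in activated cells (edgeR adjusted p 0.0457), a call lost without any 1 of the replicates (adjusted p 0.0516 to 0.204), and stood at 0.96 ± 0.40 in resting cells (0.0688, and 0.00635 with the block). Lower in both states were Hspa9 and Tcp1. Hspa9 had 670, 510 and 672 CPM with triptolide alone and 137, 213 and 147 CPM with harringtonine added in activated cells (-1.90 ± 0.25, edgeR adjusted p 2.82e-09). Dnajb11, the J-domain partner of Hspa5, went from 87.3, 69.6 and 70.1 CPM to 20.3, 28.4 and 21.3 CPM (-1.71 ± 0.22, edgeR adjusted p 1.81e-09). Hspa5 itself was lower by 0.60 ± 0.23 on the log2 scale (edgeR adjusted p 0.0478), lost without replicate 2 (0.248) or 4 (0.234).

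The members that fell with harringtonine were set against cycloheximide directly, a comparison chosen after their values were seen. Under triptolide at 3 h, 6 members were higher and 2 lower with cycloheximide than with harringtonine in activated cells (backgrounds 3.39% and 1.49%), and 5 higher and none lower in resting cells (1.99% and 0.177%). Of the members lower in resting cells, 1 stood at an unadjusted p under 0.05 in edgeR and 0 were called in DESeq2. The 5 shared members were Hspa9, Hspa5, Dnajb11, Hsp90b1 and Tcp1 (5 of 6 and 5 of 5). Hspa5, Hsp90b1 and Dnajb11 encode proteins of the endoplasmic reticulum, Hspa9 a mitochondrial Hsp70 and Tcp1 the cytosolic CCT subunit alpha. The mitochondrial chaperonin genes Hspd1 and Hspe1 were not called in either state. Hspa9 had 719, 669 and 792 CPM with cycloheximide and 137, 213 and 147 CPM with harringtonine in activated cells, a difference of 2.13 ± 0.25 (edgeR adjusted p 1.15e-09). In resting cells it had 258, 203 and 231 CPM against 70.9, 53.1 and 73.9 CPM (1.81 ± 0.25, edgeR adjusted p 5.75e-07). Per 1000 ERCC counts the activated means were 13.1 at 0 h, 4.88 after triptolide, 8.94 with cycloheximide and 1.72 with harringtonine. In CPM the cycloheximide libraries overlapped those of triptolide alone (670, 510 and 672 CPM).

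Hspa5 had 454, 460 and 427 CPM with cycloheximide and 121, 154 and 126 CPM with harringtonine in activated cells (1.74 ± 0.23, edgeR adjusted p 5.43e-08), and differed by 1.11 ± 0.23 in resting cells (0.00119, lost without replicate 2 at 0.151 or 4 at 0.0637). Dnajb11 differed by 1.70 ± 0.21 in activated (edgeR adjusted p 8.97e-09) and 1.03 ± 0.21 in resting cells (0.000998, and 0.0567 without replicate 2). Hsp90b1 had 193, 170 and 159 CPM against 76.5, 81.9 and 55.3 CPM in activated cells (1.29 ± 0.20, edgeR adjusted p 2.59e-06) and differed by 0.66 ± 0.19 in resting cells (0.0421, lost without any 1 of the replicates, 0.179 to 0.283). Tcp1 differed by 0.97 ± 0.17 in activated (edgeR adjusted p 4.56e-05, 0.0682 without replicate 4) and 0.62 ± 0.17 in resting cells (0.0307, lost without any 1 of the replicates, 0.108 to 0.448). Cct3 was the sixth in activated cells (0.56 ± 0.17, edgeR adjusted p 0.0412), lost without replicate 2 (0.196) or 4 (0.779). The 2 members lower with cycloheximide in activated cells were Hspa8 (-0.86 ± 0.25, edgeR adjusted p 0.027) and Dnajb1 (-1.14 ± 0.35, 0.0399), both lost without replicate 4 (adjusted p 0.583 and 0.595), Hspa8 also without replicate 2 (0.15) and Dnajb1 without replicate 3 (0.123). Cct4, at 406 to 477 CPM with cycloheximide and 377 to 517 CPM with harringtonine in activated cells, overlapped between them. Hspd1 (0.54 ± 0.22, edgeR adjusted p 0.188) was called with the replicate block (0.0405), as it was in resting cells (0.62 ± 0.23, 0.198, and 0.0383 with the block). In activated cells the block gave 12 members called in place of 8 (10 higher, 2 lower). In resting cells the block gave 8 members called in place of 5 (8 higher, none lower). Of 28 related genes of endoplasmic reticulum folding tested, 5 were higher with cycloheximide and none lower in activated cells, Dnajc3 (0.74 ± 0.14) and Pdia3 (0.98 ± 0.23) with the smallest p, and 3 and none in resting cells.

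**Figure D4:**
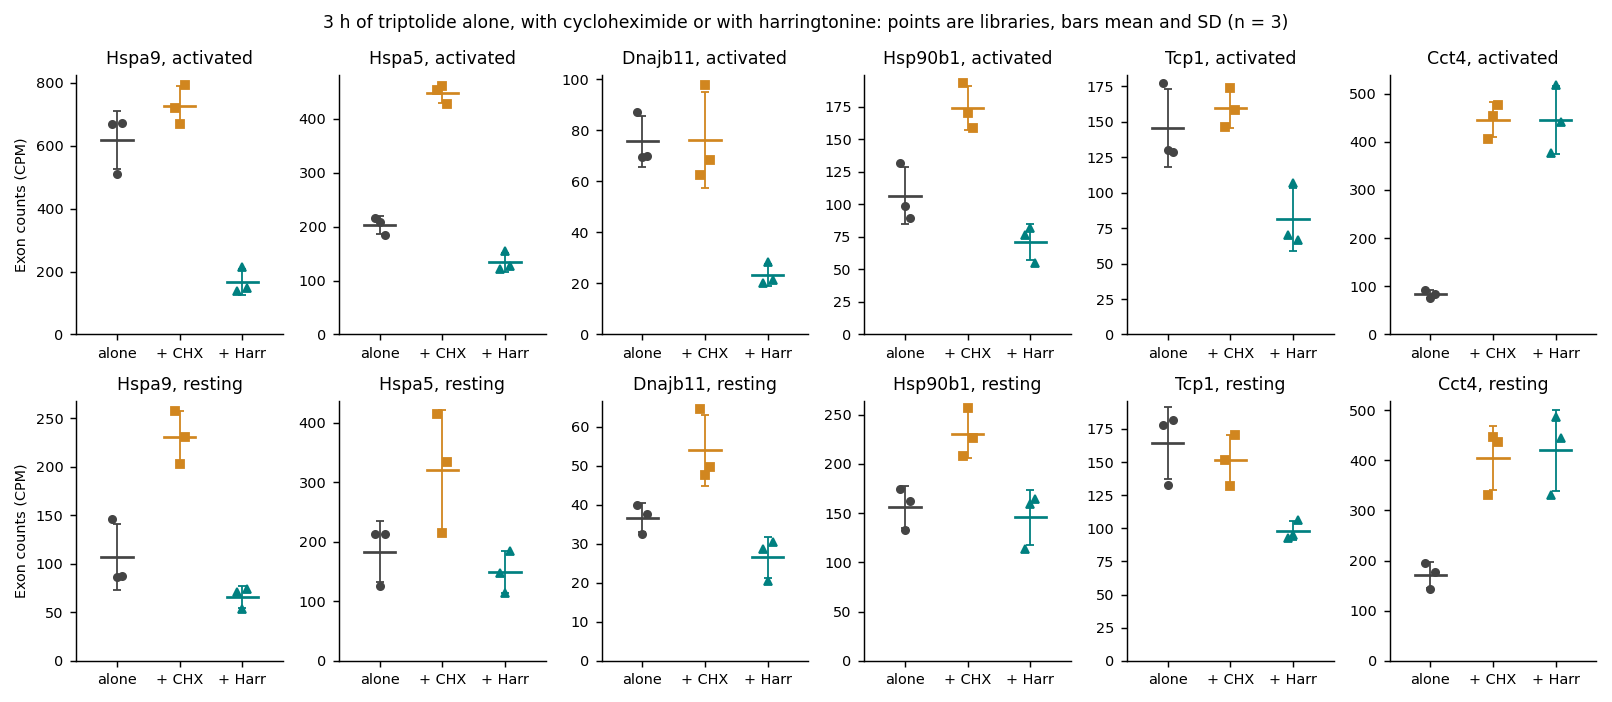
Exon CPM at 3 h with triptolide alone, with cycloheximide and with harringtonine for 6 chaperone genes, in activated and resting cells, one point per library with the mean and SD. With harringtonine Hspa9 lies at 137 to 213 CPM in activated libraries, below 669 to 792 CPM with cycloheximide, while Cct4 overlaps between the 2 inhibitors.

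Translation inhibitors alone, without a transcription block, were compared with the same untreated libraries. After 3 h of cycloheximide 16 members were lower and 3 higher than in untreated activated cells (backgrounds 15% and 15%), and after harringtonine 15 and 3 (15.5% and 15.5%). The median member stood at -0.52 in each, against -0.01 and -0.02 for all genes. Per spike-in molecule the cycloheximide median was -0.02 against 0.47 for all genes, with 17 members below 0 and 16 above. Lower with cycloheximide were all 7 CCT subunits, all 3 Hsp90 genes and both mitochondrial chaperonin genes, though Cct4 turned above 0 when spike-scaled. Hspd1 had 402, 290 and 381 CPM untreated, 109, 98.4 and 77.0 CPM with cycloheximide and 104, 69.4 and 80.2 CPM with harringtonine. Its changes were -1.92 ± 0.22 (edgeR adjusted p 7.09e-11) and -2.08 ± 0.22 (4.6e-12), and 3 of the 6 treated libraries lay below its lowest 0 h value of 97.8 CPM. That value came from the shallow replicate 3 library, with 141028 exon counts in all. Hspa9 had 516, 471 and 393 CPM with cycloheximide against 1186, 950 and 959 CPM untreated (-1.17 ± 0.24, edgeR adjusted p 6.68e-05). Hsp90ab1 (-1.23 ± 0.19), Tcp1 (-1.20 ± 0.17), Ahsa1 (-1.1 ± 0.19), Cct3 (-1.05 ± 0.17), Hsp90aa1 (-0.96 ± 0.22), Hsp90b1 (-0.93 ± 0.19) and Cct2 (-0.83 ± 0.16) fell with cycloheximide too (edgeR adjusted p of at most 0.000337). With harringtonine Cct3 fell by 1.62 ± 0.18, Hspa9 by 1.48 ± 0.24, Tcp1 by 1.39 ± 0.17 and Hsp90b1 by 1.31 ± 0.20 (edgeR adjusted p of at most 7.34e-07).

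In activated cells 3 members rose with both inhibitors, Dnajb1, Dnajb4 and Chordc1, a co-chaperone of Hsp90. Dnajb1 had 80.4, 123 and 96.3 CPM untreated, 164, 220 and 190 CPM with cycloheximide and 156, 212 and 203 CPM with harringtonine. No treated library overlapped an untreated one, and the changes were 0.94 ± 0.29 (edgeR adjusted p 0.00847) and 0.94 ± 0.29 (0.00893). Dnajb4 rose from 14.5, 17.96 and 15.2 CPM to 45.4, 57.5 and 31.4 CPM with cycloheximide (1.49 ± 0.26, edgeR adjusted p 4.91e-06). Chordc1 went from 69.1, 47.9 and 77.2 CPM to 114, 123 and 104.8 CPM. Hspa5 (0.05 ± 0.22, edgeR adjusted p 0.914) was not called with cycloheximide, and Hspa8 (-0.39 ± 0.25, 0.263) was called with the replicate block only (0.0246). Without replicate 4, 9 members were called with cycloheximide in place of 19, and the adjusted p was 0.16 for Dnajb1, 0.109 for Hsp90aa1 and 0.0894 for Hsp90b1. With harringtonine it was 0.201 for Dnajb1, 0.108 for Hsp90aa1 and 0.0755 for Hsp90ab1, whose changes were -0.86 ± 0.22 and -0.84 ± 0.19.

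In resting cells the same inhibitors called fewer members. With cycloheximide 5 were lower and 3 higher (backgrounds 12.5% and 13.8%), and with harringtonine 6 and 1 (10.6% and 9.84%). With the replicate block these became 14 members (4 higher, 10 lower) and 15 (4 higher, 11 lower). The backgrounds above are from the fit without the block, so these counts cannot be set against them. Tcp1 had 195, 226 and 259 CPM untreated and 110, 123 and 151 CPM with cycloheximide (-0.82 ± 0.17, edgeR adjusted p 9.24e-05), and changed by -0.87 ± 0.17 with harringtonine (6.45e-05, and 0.0521 without replicate 4). These falls are relative to the typical mRNA, since the members lay above 0 when spike-scaled with cycloheximide (33 of 33) and with harringtonine (32 of 33), Tcp1 at 0.22 and 0.19. Hspa5 (0.62 ± 0.22, edgeR adjusted p 0.0321) and Hsf1 (0.65 ± 0.25, 0.0467) rose with cycloheximide, both lost without replicate 2 (adjusted p 0.0997 and 0.21) or 4 (0.189 and 0.104) and Hsf1 also without replicate 3 (0.0536). Hspd1 was not called with either inhibitor (-0.46 ± 0.22, edgeR adjusted p 0.121, and -0.59 ± 0.23, 0.0511) except with the block (0.0253 and 0.00587). Hsp90ab1 fell with cycloheximide (-0.53 ± 0.19, edgeR adjusted p 0.0299), lost without any 1 of the replicates (0.0572 to 0.295) and turned to 0.53 when spike-scaled. Without replicate 4, 2 members were called with cycloheximide and none with harringtonine.

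The differences between the cell states were tested as such. For triptolide, the change differed for 6 members, 5 with a higher and 1 with a lower value in activated cells (backgrounds 4.07% and 2.4%). Hsp90aa1 was not called in activated cells (530, 438 and 533 CPM at 0 h, 659, 501 and 634 CPM at 3 h) while it fell in resting cells, a difference of 1.98 ± 0.32 (edgeR adjusted p 1.32e-05). Hspa9 differed by 1.62 ± 0.35 (edgeR adjusted p 0.00132), Dnajb11 by 1.17 ± 0.29 (0.0068), Dnajb6 by 1.16 ± 0.38 (0.0455) and Cct3 by 1.13 ± 0.25 (0.00241). Cct4 differed the other way, by -0.85 ± 0.22 (edgeR adjusted p 0.00761). Without replicate 2 the adjusted p was 0.199 for Cct3, 0.21 for Dnajb11 and 0.495 for Dnajb6, and without replicate 4 it was 0.139 for Hspa9, 0.0613 for Dnajb11, 0.115 for Dnajb6 and 0.274 for Cct4, which stood at 0.0748 without replicate 3. For cycloheximide alone, 2 members had a higher and 5 a lower value in activated cells (backgrounds 7.95% and 8.65%). With the replicate block these were 5 and 13, and the background with the block is not given. Hspd1 had the largest difference, -1.46 ± 0.31 (edgeR adjusted p 0.000441), and Hspa9 (-1.26 ± 0.34, 0.00511), Cct3 (-1.18 ± 0.25, 0.000291), Ahsa1 (-1.15 ± 0.27, 0.00144) and Cct7 (-0.83 ± 0.20, 0.00183) shared its direction. Without replicate 2 the adjusted p was 0.0525 for Ahsa1 and 0.0968 for Cct7, and without replicate 4 none of the 7 was called (adjusted p from 0.0602 for Cct3 to 0.26 for Dnajb4).

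Intron counts come mostly from RNA not yet spliced, and 31 members were tested on them (Hspa1a and Hspa1b have no introns) among 10750 genes. At 0 h, 6 members were higher in activated cells than in resting ones (background 7.93%) and none lower (background 5.59%; 4 lower at an unadjusted p under 0.05 and 2 in DESeq2). Named by smallest p, these were Hspa4l (190, 183 and 257 CPM against 69.5, 54.1 and 61.9 CPM, 1.78 ± 0.31, edgeR adjusted p 9.79e-06), Cct3 (1.45 ± 0.28, 4.95e-05), Hsf1 (1.38 ± 0.31, 0.000754) and Hspa9 (1.58 ± 0.38, 0.00172). Hsf1 was lost without replicate 2 (adjusted p 0.155), when 3 of the 6 were left. These 4 genes were called higher at 0 h in exons too. From 0 to 3 h in activated cells no member was called in either direction (backgrounds 0.121% and 1.47%), with 6 at an unadjusted p under 0.05 in edgeR and 1 called in DESeq2. With the replicate block 4 were called, all higher.

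With cycloheximide alone, 9 members were lower in introns and none higher in activated cells (backgrounds 7.44% and 6.19%; 2 higher at an unadjusted p under 0.05 and 0 in DESeq2), and 14 with the block (2 higher, 12 lower). The member median was -0.58 against 0.00 for all genes. Hspd1 introns had 61.5, 47.5 and 70.0 CPM untreated and 6.35, 8.84 and 12.99 CPM with cycloheximide (-2.68 ± 0.45, edgeR adjusted p 3.86e-06). Hspd1 overlaps Hspe1 at its start, and whether the counting used strand is not given in the sources used here, so reads there cannot be assigned with certainty. Hsph1, the cytosolic Hsp110, had 56.8, 56.1 and 109 CPM against 21.2, 16.3 and 30.7 CPM (-1.69 ± 0.28, edgeR adjusted p 4.1e-06). Hspa9 (-1.63 ± 0.38, edgeR adjusted p 0.000946, 0.0587 without replicate 2) and Cct3 (-1.25 ± 0.27, 0.000328) were lower as well. Without replicate 2 or 4, 4 members were called. The plot of exon against intron changes sets both changes of each member side by side.

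**Figure D5:**
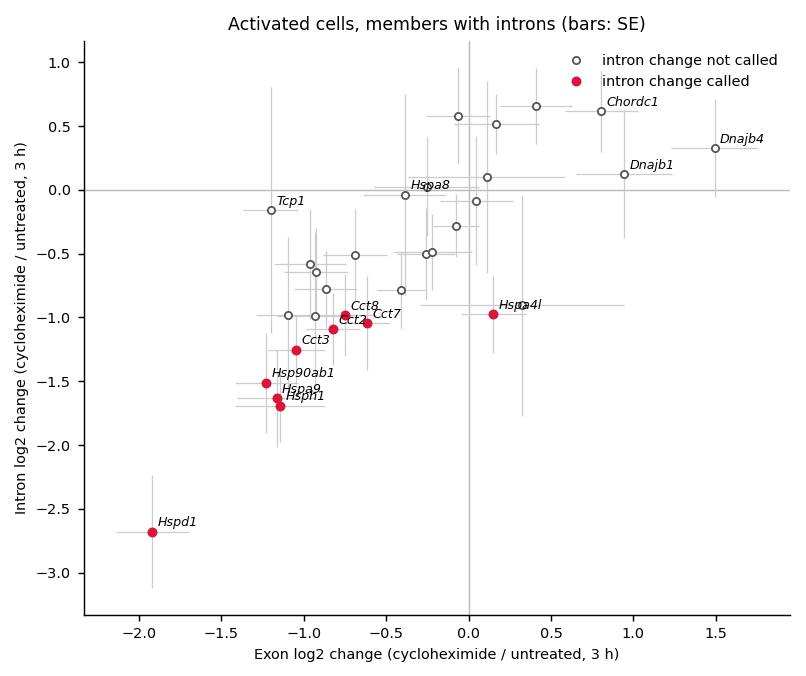
Log2 change of intron counts (vertical) against exon counts (horizontal) for 31 chaperone genes with cycloheximide alone in activated cells at 3 h, bars showing SE, red where the intron change was called. Hspd1 lies lowest, at -1.92 in exons and -2.68 in introns.

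Intron counts were lower under triptolide. Summed over the 27 members that host no small RNA, intron counts per 1000 ERCC counts were 41.8 ± 12.3 (SD, n = 3) in untreated activated cells at 0 h, 47.4 ± 15.0 at 3 h and 1.70 ± 0.67 after 3 h of triptolide. In resting cells they were 21.6 ± 7.3 at 0 h, 15.2 ± 4.1 at 3 h and 1.66 ± 0.25 after 3 h of triptolide. The activated libraries labelled 0 h with triptolide already stood at 13.5 ± 6.4. For DRB no sum was made and introns were not tested. The intron counts that follow are not scaled for depth, and replicate 3 of untreated activated cells at 0 h was among the 2 shallowest libraries. In activated cells Dnaja2 had 505, 5 and 101 intron counts untreated at 0 h, and 58, 8 and 20 at 0 h of DRB. It had 320, 23 and 127 at 3 h of DRB, and 8, 2 and 3 at 3 h of triptolide. Hspa9 had 1166, 20 and 255 untreated at 0 h, and 128, 39 and 66 at 0 h of DRB. At 3 h it had 188, 35 and 115 with DRB, and 17, 8 and 15 with triptolide. Hspa4l, at 1379, 41 and 584 untreated at 0 h, went by contrast from 783, 163 and 396 to 88, 29 and 78 between 0 and 3 h of DRB. Whether DRB lowered introns relative to untreated cells was not tested. Relative to the typical intron, 4 members were higher and 8 lower after 3 h of triptolide in activated cells (backgrounds 15.7% and 21.7%), with a spike-scaled median of -2.70 against -2.59 for all genes. Hspa4l (-1.82 ± 0.34, edgeR adjusted p 1.01e-05), Hspa4 (-1.39 ± 0.31, 0.000145) and Cct8 (-1.85 ± 0.47, 0.000889) were lower, and Dnajb4 higher (2.86 ± 0.48, 1.17e-06). On the CPM scale Hspa8 stood apart: its introns had 116, 1309 and 1107 CPM in untreated activated cells at 0 h and 19579, 6090 and 2401 CPM after 3 h of triptolide. As counts these were 842, 294 and 2516 at 0 h, beside ERCC counts of 189658, 7278 and 66697. After triptolide they were 13317, 1462 and 1156, beside ERCC counts of 257995, 45687 and 224574. Per spike-in molecule they were thus higher after triptolide in replicate 2 and lower in replicates 3 and 4. Introns of Hspa8 hold the box C/D snoRNA genes Snord14c (chr9:40803583-40803668), Snord14d (chr9:40803995-40804080) and Snord14e (chr9:40804748-40804837). Whether their reads were counted with the introns is not given in the sources used here, and their part in these values was not tested. Small RNA genes also overlap 5 other members: Tcp1, Hspa9, Ahsa1, Dnaja1 and Hsp90b1.

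Related genes outside the list came from sets chosen for their roles. In activated against resting cells at 3 h, where 26.3% of all tested genes were higher and 27.5% lower, 7 of 15 genes of mitochondrial folding and quality control were higher and 3 lower, with Lonp1, a matrix protease, at 2.06 ± 0.21 and Clpp at 1.90 ± 0.24. Of 20 other Hsp90 co-chaperones 10 were higher and 3 lower, Ruvbl2 at 2.35 ± 0.22 and Ruvbl1 at 2.29 ± 0.16, and of 7 other exchange factors and Hsp70 regulators 5 were higher and none lower. Of the 28 genes of endoplasmic reticulum folding 9 were higher and 7 lower, shares near that background. After triptolide in activated cells (backgrounds 21.5% and 26.1%) 10 of these 28 were higher and 6 lower relative to the typical mRNA. Herpud1 (-2.53 ± 0.38) and Xbp1 (-2.28 ± 0.40) were among the 6 lower, and the 10 higher, the larger group, are not named here. With cycloheximide added to triptolide (backgrounds 15.8% and 11.6%), 11 of the 20 Hsp90 co-chaperones were higher and 2 lower, Ttc4 at 1.80 ± 0.21, and none of the 28 genes of endoplasmic reticulum folding was higher, with 4 lower. With cycloheximide alone in activated cells 12 of those 28 were lower and 2 higher (backgrounds 15% and 15%), and with harringtonine 14 and 1 (15.5% and 15.5%). All these values are from edgeR with 3 libraries per group, and calls carry an adjusted p under 0.05.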

How the data were processed

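Total RNA of 105 libraries was sequenced, with spike-in RNAs (92 ERCC species) in each. Exon and intron read counts per gene were deposited by the authors as whole-number counts, not normalized. Per the submitters' processing notes, reads were processed with TopHat2 2.0.13, Bowtie 1.1.1.0 and HTSeq on mm10. Whether counting used strand, and its annotation, are not given in the sources used here. Reads not in genes made up 75.8 to 97.3% of each library and stayed out of library sizes and tests.

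Counts were fitted with edgeR 4.0.16 (R 4.3.3, limma 3.58.1): filterByExpr, TMM scaling, 1 mean per group over all 35 groups, robust quasi-likelihood F test, Benjamini-Hochberg adjustment over all genes tested, and a call at an adjusted p under 0.05. A spike-scaled change used summed ERCC counts as the scale. DESeq2 1.42.0 was an alternative. Alternatives also covered RLE factors, library size alone, no filter, only the libraries compared, a replicate block within each cell state and each replicate left out. Those without the 2 shallowest libraries, and the comparison of cycloheximide with harringtonine under triptolide, were chosen after seeing the data. Coordinates come from GENCODE vM21 and promoter windows from RefSeq. Figures were drawn with matplotlib 3.10.9 (Python 3.11.15).

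The members and lists were chosen with earlier results of these data known. The genes with test values were limited to 10 in every comparison (Hspa1a, Hspa1b, Hspa5, Hspa8, Hsp90aa1, Hsp90ab1, Hspd1, Dnajb1, Hsf1, Cct2) and the 6 other called members of smallest p. In introns the limit was 4, and in related lists 2 per direction. Not all of these values are printed, so a gene left out of a paragraph may be called or not called there. Residuals of libraries with the same number and cell state correlated at 0.331 on average and those of other numbers at -0.164, and 105 of 105 libraries were closest to their own number. Every same-number pair was over 0.1 in 13 of 18 comparisons between groups. The block is printed beside some of the results it changes there, and not beside all.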

Additional observations from a re-analysis of the deposited data

Results flagged for a closer look

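The effect of a treatment differed between activated and resting cells for 13 results, each by a test of the difference itself (edgeR, adjusted p under 0.05). With triptolide from 0 to 3 h, the activated value minus the resting value was 1.62 for Hspa9, 1.16 for Dnajb6, 1.17 for Dnajb11, 1.98 for Hsp90aa1, 1.13 for Cct3 and -0.85 for Cct4, all as log2. With cycloheximide alone at 3 h it was -1.26 for Hspa9, 0.90 for Hspa4l, 1.00 for Dnajb4, -1.15 for Ahsa1, -1.46 for Hspd1, -1.18 for Cct3 and -0.83 for Cct7. Hspa9 and Cct3 appear in both sets, with opposite signs. B cell marker sums, which were higher in resting libraries at the median (247 against 96.5 CPM), were not tested for a part in these differences.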

How the results depend on the processing

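Counts of members called moved by over 1.5 times as follows. On the spike-in scale, with the same count without the 2 shallowest libraries unless given, 6 were called for activated against resting cells at 0 h, 4 for resting cells over time, 33 for triptolide and 33 for DRB in activated cells, 20 for cycloheximide added to DRB, 6 and 22 for cycloheximide alone in activated and resting cells, 10 and 21 for harringtonine alone, 2 for the difference between states with triptolide, 5 for cycloheximide against harringtonine in activated cells, and in introns 4 for cycloheximide and 26 for triptolide (25 without the 2 shallowest). Activated cells over time gave 5 on that scale without the 2 shallowest libraries. Most genes fall on that scale when transcription is blocked, so these counts are not particular to the members. In introns, 7183 of 10750 genes were lower and 444 higher on it for triptolide. For cycloheximide 370 were lower and 132 higher. Shares of all genes called in exons on that scale are not given here. Without a filter on low counts the counts were 5 for activated cells over time, 4 and 1 for cycloheximide and harringtonine alone in resting cells, 4 for the difference with cycloheximide and 3 for cycloheximide against harringtonine in resting cells. With only the libraries compared they were 4 and 7 over time in activated and resting cells, 5 for cycloheximide added to DRB and 1 for cycloheximide against harringtonine in resting cells. Library size alone gave 18 for DRB, 12 for the difference with cycloheximide and 8 for cycloheximide against harringtonine in resting cells. RLE factors and DESeq2 gave 11 each for the difference with cycloheximide and 1 each for introns over time, and DESeq2 gave 10 for introns at 0 h. The replicate block gave 18 for DRB, 14 and 15 for cycloheximide and harringtonine alone in resting cells, 18 for the difference with cycloheximide, 8 for cycloheximide against harringtonine in resting cells, and in introns 14 at 0 h, 4 over time and 14 for cycloheximide. No member called in the unblocked fit was lost with the block. The backgrounds printed with the results are from the main fit. Counts with the block or another alternative, in exons or introns, cannot be set against them.

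With each replicate left out in turn, the counts ranged from 4 to 10 at 0 h, 2 to 13 and 2 to 11 over time in activated and resting cells, 7 to 15 for DRB, 7 to 11 for cycloheximide added to DRB, 9 to 20 and 2 to 4 for cycloheximide alone, 0 to 5 for harringtonine alone in resting cells, 2 to 5 and 0 to 7 for the differences between states with triptolide and cycloheximide, 4 to 9 and 1 to 3 for cycloheximide against harringtonine, and in introns 3 to 7 at 0 h, 4 to 8 for cycloheximide and 5 to 8 for triptolide. Among the genes with test values, signs turned on the spike-in scale, with a call on either scale, for triptolide in activated cells (Hsp90aa1 -1.34, Hsp90ab1 -1.50, Cct2 -1.43) and resting cells (Hspa1b -1.56, Hsp90ab1 -1.28, Hsf1 -1.38, Cct2 -1.52), DRB (Hsp90aa1 -1.24, Cct2 -1.32), cycloheximide added to triptolide in resting cells (Hsp90ab1 0.41, Cct2 0.71), cycloheximide alone in resting cells (Hspa8 0.94, Hsp90aa1 0.84, Hsp90ab1 0.53, Cct2 0.62, Tcp1 0.22, Hspa4l 0.29, Hsp90b1 0.45) and harringtonine alone there (Hsp90aa1 1.03, Cct2 0.50, Tcp1 0.19, Hsp90b1 0.46, Hspa4l 0.46, Hspe1 0.41). Other called members whose sign turned there were Hspa4l (triptolide -1.12, DRB -0.86) and Cct4 (cycloheximide 0.053) in activated cells and Dnajc7 (triptolide -0.74) in resting cells. Values that turned without a call on either scale are left out. With library size alone Hsp90ab1 turned to -0.056 for triptolide in resting cells. The spike-in scale measures RNA per spike-in molecule, and other causes were not tested. Depth limits Bag3, which had 0 counts in the activated 3 h triptolide and DRB groups.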
